A study of Mus musculus with 4 samples.

Results

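Neutrophils of injured skeletal muscle are described here across their genes. The cells were chosen by measured values, from their own UMI counts (distinct RNA molecules): a barcode counted as a neutrophil where it had at least 500 detected genes, under 10% of UMIs from mitochondrial genes, at least 200 UMIs per 10000 from *S100a8* and *S100a9*, at least 1 UMI of *Csf3r* or *Cxcr2*, and under 3 UMIs per 10000 from the 3 C1q genes that mark macrophages. This rule took 1001 of the 17665 barcodes that passed the filters on genes and mitochondrial UMIs, out of 20500 in all. *S100a8*, *S100a9*, *Csf3r*, *Cxcr2* and the C1q genes therefore describe the choice and are no results.

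The study injected cardiotoxin, a toxin from snake venom that destroys myofibres, into the tibialis anterior of male C57BL/6 mice aged 8 to 12 weeks. CD45+ leukocytes were collected with magnetic beads at 2 or 4 days post-injury (dpi2 and dpi4) and sequenced as single cells by a droplet method that reads the 3′ end of each RNA. Control mice were Bach1 fl/fl, in which loxP sites surround an exon of *Bach1*, and the mice labelled KO were littermates that were Bach1 fl/fl and carried Lyz2-Cre. Every mouse was therefore floxed and injured, and the Cre was the only labelled difference. Lyz2-Cre acts in monocytes, macrophages and neutrophils alike, so that neutrophils were not the sole cells targeted. Each of the 4 groups was 1 library, so there was no spread between animals, no test was run, and every difference below has no replicate check. Fewer neutrophils, or less RNA per neutrophil, cannot be told apart from unequal recovery of these cells.

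Neutrophils are short-lived granulocytes that enter damaged muscle within hours, ahead of monocytes, and release granule proteins, oxidants and chemokines. BACH1 is a repressor that binds antioxidant and Maf recognition elements in DNA and leaves them when it binds heme, so that genes of heme breakdown, iron storage and glutathione synthesis are its best known targets. Type I interferon acts through a complex of transcription factors that holds IRF9 on response elements in the promoters of a large set of antiviral genes, many of which mature neutrophils express.

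The cells carried other genes of neutrophils that the rule had not used. All 10 further markers on the list were detected in both dpi2 libraries, and their summed level was 8126 CPM (UMIs of a gene per 1000000 UMIs of the summed cells) in the control and 10576 CPM in the KO-labelled library. In monocytes of the same libraries the sum was 752 and 1089 CPM, and in macrophages it was 418 and 594 CPM. *Ly6g*, which encodes the antigen most used to sort mouse neutrophils, was nearly absent, with 6 UMIs over the control neutrophils and 55 over those labelled KO at dpi2. Of the primary granule genes, which precursors in the marrow make, *Mpo* and *Ctsg* had no UMI and *Elane* had 1, *Prtn3* had 5 and 15 UMIs at dpi2, and *Ctsc*, which mature myeloid cells also express, had 151 and 136. Markers of T and NK cells summed to 24.2 and 16.3 CPM with *Cd3e* and *Cd3g* at 0, and markers of B cells to 0 and 0.396 CPM. Monocyte markers were present and unequal, with all 8 detected and a sum of 1943 CPM in the control against 465 CPM in the KO-labelled library, while the sum in monocytes themselves was 7456 and 5471 CPM.

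The 4 libraries held from 4177 to 6602 barcodes and from 57010520 to 80228489 UMIs. Neutrophils were shallow cells. At dpi2 the median control neutrophil held 2336 UMIs and the median neutrophil labelled KO 3614 UMIs, against 10412 and 13636.5 UMIs in monocytes. The summed neutrophils held 909196 and 2522217 UMIs at dpi2, 72146 UMIs in the control at dpi4, and 10297 UMIs from 3 cells in the KO-labelled library at dpi4. From 2 to 14 barcodes were shared between any pair of libraries and 0 of them were neutrophils. All intervals below are 95% intervals that cover counting error only.

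*Bach1* (ENSMUSG00000025612, chr16:87698945-87733346, plus strand), the targeted gene, was present in neutrophils of every library. Control neutrophils held 210 CPM (181 to 242) at dpi2, where those labelled KO held 264 CPM (244 to 285), and the dpi4 levels were 111 CPM (47.9 to 218) and 194 CPM (23.5 to 702). *Bach1* counts were thus not lower under the KO label. The floxed exon is internal and 3′ tags need not come from it, so these counts do not check the deletion. *Lyz2* (chr10:117277331-117282321, minus strand), the lysozyme gene into which the Cre of this driver line is inserted, did differ. Control neutrophils held 2663 CPM (2558 to 2771) of it at dpi2, where those labelled KO held 49.6 CPM (41.3 to 59.1), and the dpi4 levels were 1636 CPM (1354 to 1959) and 194 CPM (23.5 to 702). The same gene went from 11598 to 21.1 CPM in monocytes and from 8543 to 12.2 CPM in macrophages. *Lyz1* is a near-identical copy, and how reads were split between the pair is uncertain.

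At dpi2 neutrophils were a larger share of the cells in the KO-labelled library. They were 337 of 6010 kept barcodes in the control, 5.61% (5.04% to 6.22%), and 638 of 3799 in the KO-labelled library, 16.8% (15.6% to 18.0%). The difference was 11.2 percentage points (9.86 to 12.5). At dpi4 few barcodes met the rule in either library, with 23 of 4323 barcodes in the control, 0.532% (0.338% to 0.797%), and 3 of 3533 in the KO-labelled library, 0.0849% (0.0175% to 0.248%), a difference of -0.447 points (-0.721 to -0.193).

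**Figure D1:**
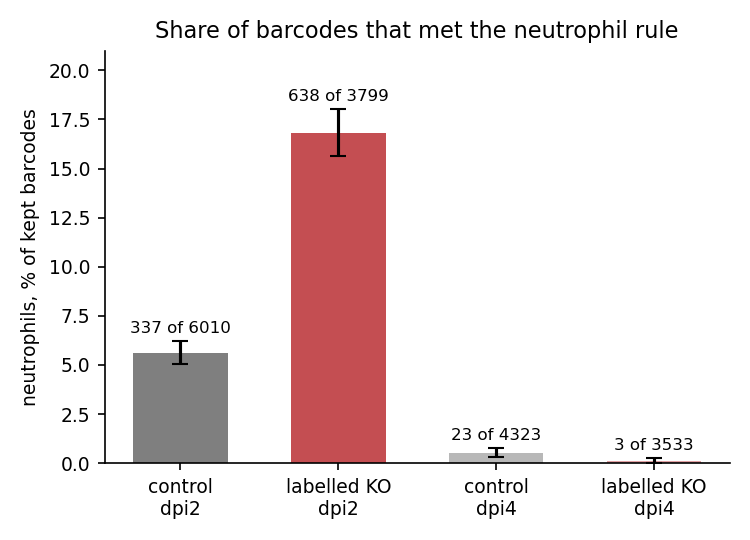
Neutrophil share of the kept barcodes, in percent on the vertical axis, in each of the 4 libraries; bars start at 0 and error lines are exact 95% binomial intervals over cells. The bar of the KO-labelled library at dpi2 reaches 16.8% and that of the control 5.61%, while both dpi4 bars stay under 1%.

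The limits of the rule bear on these shares. In a cell with fewer than 3334 UMIs a single C1q UMI is enough to exclude it, and 298 of the 337 control neutrophils but only 224 of the 638 labelled KO lay under that depth at dpi2. The C1q limit alone kept out 91 barcodes of the control and 113 of the KO-labelled library, of which 72 and 80 had exactly 1 C1q UMI. At dpi4 it alone kept out 37 and 12 barcodes, more than the 23 and 3 that met the rule, and with a limit of 10 in place of 3 the neutrophils numbered 48 and 10, or 1.11% and 0.283%. The C1q genes stood at 2.67 and 6.93 UMIs per 10000 at dpi4 in T and NK cells, which should lack them, against 0.603 and 0.768 at dpi2. The part of such UMIs in the dpi4 shares was not tested. Just below the S100 limit, from 150 to 200 UMIs per 10000, lay 41 and 51 barcodes, and just above it, from 200 to 250, lay 34 and 41. With the C1q and S100 limits moved one at a time, the dpi2 difference ran from 8.55 to 12.7 points, and it was 8.40 points without the cells that held a UMI of the monocyte genes *Ccr2*, *Vcan*, *F13a1* or *Fn1*.

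To compare genes, the UMIs of all neutrophils in a library were summed. A gene passed the size rule where the pair of libraries held at least 50 of its UMIs, its CPM ratio differed at least 2-fold from that of the median gene, and the interval of the ratio left out 1. The median gene was lower in the KO-labelled library by 0.31 on the log2 scale (a CPM ratio of 0.806), and the top 10 genes held 18.9% of the UMIs in the control and 28.3% there. All log2 ratios and folds below are relative to that gene, and CPM values are not, so that a fold is not the quotient of the CPM values beside it. Of 5168 genes with at least 50 UMIs in the dpi2 pair, 288 passed as higher in the KO-labelled library (5.57%) and 207 as lower (4.01%). Higher genes were thus 58.2% of those past the rule, and 28.0% without the scaling, with 167 higher and 429 lower. TMM factors of edgeR, another scaling, gave 347 higher and 162 lower.

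The results turn on the heme, iron and glutathione lists, on the list of BACH1 and related factors and on the interferon-response list. The sequences that follow are taken from promoters of members of these lists (RefSeq, GRCm38.p6). They were picked because they hold a match to the known recognition letters of BACH1 or of the interferon-activated factor complex. Capitals mark the match. For the glutathione gene *Gclm*, the thioredoxin reductase gene *Txnrd1* and the small Maf gene *Mafg* the match is the antioxidant response element core TGACNNNGC, read on either strand.

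Gclm chr3:122245398-122245456, plus strand: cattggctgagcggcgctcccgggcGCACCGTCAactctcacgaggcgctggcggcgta
Txnrd1 chr10:82859089-82859147, plus strand: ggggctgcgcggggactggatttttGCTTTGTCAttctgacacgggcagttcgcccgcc
Mafg chr11:120633736-120633794, minus strand: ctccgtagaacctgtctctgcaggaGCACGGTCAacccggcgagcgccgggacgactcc

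For 3 interferon-response genes the capitals mark the core of the interferon-stimulated response element, in which a pair of GAAA blocks stand 2 bases apart, or the same letters on the opposite strand.

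Ifit1 chr19:34640760-34640838, plus strand: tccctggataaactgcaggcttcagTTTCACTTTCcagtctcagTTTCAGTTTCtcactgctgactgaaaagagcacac
Ifit3 chr19:34583348-34583441, plus strand: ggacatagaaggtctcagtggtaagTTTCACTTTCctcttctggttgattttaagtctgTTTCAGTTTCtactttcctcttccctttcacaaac
Isg15 chr4:156200850-156200921, minus strand: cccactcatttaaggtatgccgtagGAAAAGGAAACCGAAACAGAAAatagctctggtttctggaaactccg

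These matches begin 134 bases before the RefSeq start of *Gclm* and 222 before that of *Mafg*. In *Txnrd1* the match lies inside the gene, 92 bases before an internal RefSeq start and not before the first one. In *Ifit1* they lie 104 and 85 bases before the start, in *Ifit3* 156 and 122, and *Isg15* holds 3 overlapping matches from 78 to 66 bases before it. Over windows of 300 bases (250 before to 50 after the start), TGACNNNGC was found for 14.0% of 26994 genes, for 12 of the 36 matched genes of the heme, glutathione and NADPH lists (33.3%), and for 8 of 30 interferon-response genes (26.7%). The interferon element core was found for 3.98% of all genes, for 15 of 30 interferon-response genes (50%) and for 1 of the 36. *Hmox1* and *Fth1*, whose best known elements lie far upstream, had no match in this window. The related letters TGAGTCA, which read TGACTCA on the other strand and so can overlap TGACNNNGC, were found for 5.95% of all genes, for 4 of the 36 (11.1%), for 6 of 30 interferon-response genes (20%) and for 4 of 15 cytokine genes (26.7%). A match is a description of the letters and does not show binding.

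Heme and iron genes were higher in neutrophils of the KO-labelled library at dpi2. *Hmox1* (ENSMUSG00000005413, chr8:75093621-75100589, plus strand), the enzyme that opens the heme ring and releases iron, had 108 UMIs in control neutrophils, which is 119 CPM (97.4 to 143), and 15539 UMIs in those labelled KO, which is 6161 CPM (6064 to 6258). Relative to the median gene it rose 64.4-fold (log2 6.01, interval 5.74 to 6.29), which moved *Hmox1* to rank 14 among all genes of these cells. In cells thinned to 1000 UMIs, 9.64% (6.69% to 13.3%) of control neutrophils and 94.8% (92.8% to 96.4%) of those labelled KO held at least 1 *Hmox1* UMI. Without thinning these shares were 22.6% and 99.7%. In T and NK cells, which should lack the gene, the thinned share was 1.06% and 25.7%, with a median depth of 3931.5 and 4850 UMIs per cell, so that some *Hmox1* UMIs of that library also lay in cells outside the myeloid lineage.

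The ferritin subunits, which store the freed iron, were among the most abundant transcripts of the cells. *Fth1* (chr19:9980598-9985098, plus strand), the heavy subunit, rose from 13370 to 63262 CPM (5.87-fold, log2 2.55, 2.53 to 2.58) and was the top gene of neutrophils labelled KO, with 6.33% of their UMIs. Its median count per 1000 UMIs of a cell was 10 in the control and 63 in the KO-labelled library. *Ftl1*, the light subunit, rose from 7405 to 21903 CPM (log2 1.88). Of 13 genes of the heme and iron list with at least 50 UMIs, 7 rose and 0 fell, and the list median was 1.24, where the median over all genes is 0. *Slc48a1*, which carries heme out of lysosomes, rose by 2.42, *Slc11a1*, a metal transporter of phagosomes, by 1.88, and *Steap4*, a ferrireductase, by 1.87 on the log2 scale. *Slc40a1*, the iron exporter ferroportin, rose from 143 to 272 CPM (log2 1.24). *Tfrc*, the transferrin receptor, was at 33.0 and 40.4 CPM (log2 0.61) and did not pass, and neither did *Blvra* (-0.28) or *Blvrb* (0.55), the biliverdin reductases that act after *Hmox1*.

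Glutathione and thioredoxin genes were higher too, with 8 of 17 testable genes past the rule, 0 lower and a median of 0.97. *Gclm* (chr3:122245557-122270732, plus strand), which encodes the modifier subunit of glutamate-cysteine ligase, the first enzyme of glutathione synthesis, went from 23 UMIs, or 25.3 CPM, to 1173 UMIs, or 465 CPM (439 to 493). That rise was 22.8-fold (log2 4.51, 3.92 to 5.18), and the share of thinned cells with a UMI went from 1.81% to 29.0% (1.06% and 5.71% in T and NK cells). *Gclc*, the catalytic subunit, rose by 2.37 and *Slc7a11*, the cystine importer that feeds the pathway, rose from 1242 to 4180 CPM (log2 2.06). Among the thioredoxin genes, *Txnrd1* (chr10:82833951-82897712) rose from 61.6 to 282 CPM (log2 2.51), *Srxn1*, which repairs oxidised peroxiredoxins, from 15 to 269 UMIs (16.5 to 107 CPM), *Txn1* by 1.33 and *Prdx1* by 1.18. Selenium-dependent glutathione peroxidases did not follow, with *Gpx1* at -0.41 and *Gpx4* at -0.29. *Nqo1*, a quinone reductase, had 0 UMIs in the control and 29 in the KO-labelled library, too few for the rule. At a floor of 3 counts over the group's cells it was at least 4.32-fold higher. Superoxide dismutases stayed inside the rule, with *Sod1* at 0.90 and *Sod2* at 0.78.

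The list of NADPH metabolism holds enzymes that make NADPH, the reducing power of these systems and the fuel of the oxidative burst, and others of the pentose phosphate pathway. Of those that make it, *Pgd* rose from 195 to 396 CPM (log2 1.34) and *G6pdx* from 20 to 96 UMIs (1.10), while *Idh1* was at 28.6 and 16.7 CPM (-0.47). Of the others, *Taldo1* rose from 542 to 1125 CPM (1.36) and *Tkt* was at 122 and 182 CPM (0.89), which made 3 of 5 testable genes higher and 0 lower. The subunits of the NADPH oxidase itself did not rise. *Cybb*, its membrane-bound catalytic subunit, fell from 167 to 48.0 CPM (log2 -1.49), and the other 5 subunits lay between -0.34 (*Ncf1*) and 0.52 (*Ncf4*). Of the small Maf partners of BACH1, *Mafg* rose by 1.79 and *Maff* by 1.05, while *Mafk* was at 0.17. *Nfe2l2*, which encodes the activator NRF2, was at 635 and 563 CPM (0.14). *Sqstm1*, an autophagy adaptor and NRF2 target, rose by 1.36. With *Bach1* itself, these genes were the 6 testable members of the list of BACH1 and related factors, of which 3 rose and 0 fell.

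**Figure D2:**
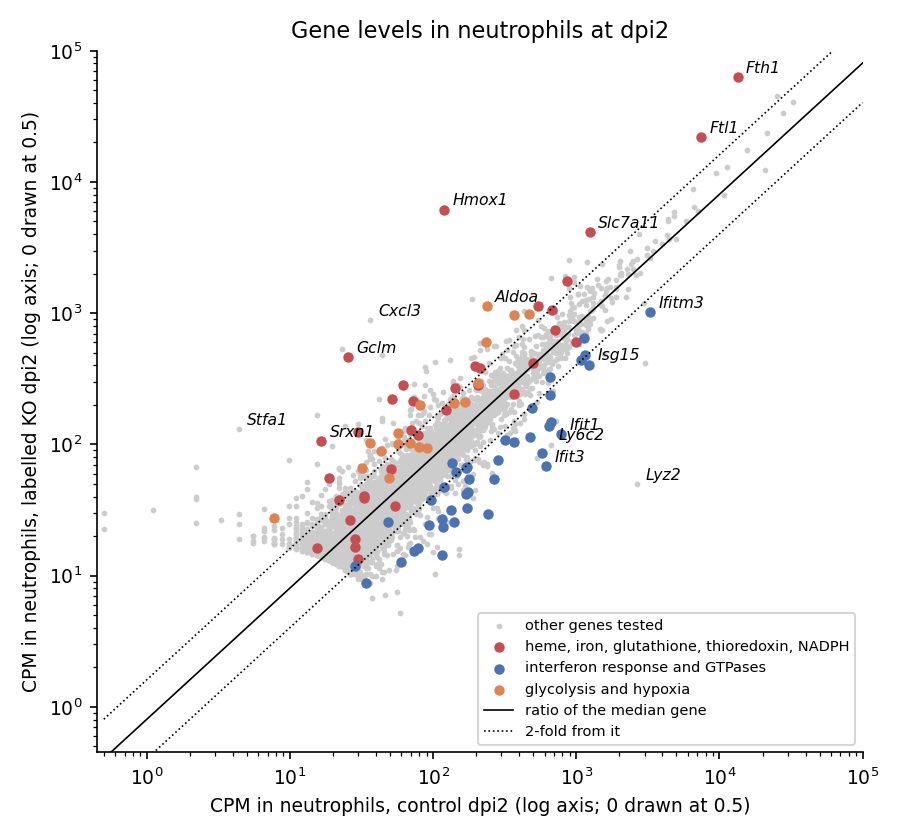
Level of each gene with at least 50 UMIs in the pair at dpi2, in CPM on log axes, with the control library on the horizontal and the KO-labelled library on the vertical axis; coloured points are members of the named lists, the solid line is the ratio of the median gene and dotted lines are 2-fold from it. *Hmox1*, *Fth1* and *Gclm* lie above the upper dotted line and *Lyz2* and *Ifit3* below the lower one.

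Glycolysis and hypoxia genes formed a further group that rose, with 11 of 18 testable genes past the rule, 0 lower and a list median of 1.37. *Aldoa* (aldolase) rose from 238 to 1130 CPM (log2 2.56), *Gapdh* from 368 to 976 CPM (1.72) and *Pkm* (pyruvate kinase) from 470 to 994 CPM (1.39). The lactate exporter gene *Slc16a3* rose by 1.68, *Eno1* by 1.62, the glucose importer gene *Slc2a1* by 1.41 and *Pfkfb3*, which sets the pace of the pathway, by 1.37. *Hif1a*, the oxygen-sensitive factor that drives many of these genes, rose from 99.0 to 243 CPM (1.61), and its targets *Hilpda* (2.27), *Egln3* (1.37) and *Bnip3* (1.13) passed as well. *Ldha*, which turns pyruvate to lactate, did not, at 167 and 209 CPM (0.64).

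Interferon-response genes were lower in neutrophils of the KO-labelled library at dpi2. Of 39 matched genes 36 were testable, 29 of them fell, 0 rose and the list median was -1.55. The summed level of the list was 17037 CPM in the control and 5426 CPM in the KO-labelled library. *Ifit3* (chr19:34583531-34588731), which encodes an RNA-binding antiviral protein, fell from 559 UMIs, or 615 CPM, to 173 UMIs, or 68.6 CPM (7.22-fold, log2 -2.85). *Ifit1* (chr19:34640871-34650009) fell from 780 to 121 CPM (5.21-fold, log2 -2.38). *Ifit3b* resembles *Ifit3* closely and the split of reads between them is uncertain, though it fell too (-2.10). *Isg15* (chr4:156199424-156200818, minus strand), a ubiquitin-like modifier, fell from 1233 to 406 CPM (-1.29), *Ifitm3*, which blocks viral entry, from 3284 to 1016 CPM (-1.38) and the chemokine gene *Cxcl10* from 641 to 139 CPM (-1.90).

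Of the transcription factors that interferon itself raises, *Irf7* (473 to 114 CPM, log2 -1.74) and *Stat2* (78.1 to 16.3 CPM, -1.95) fell, and *Irf9*, at 145 and 61.5 CPM (-0.93), stayed inside the rule. The receptor chains and kinases that sense it gave 0 of 6 testable genes past the rule and a median of 0.00, with *Ifnar1* at -0.17, *Ifnar2* at 0.39 and *Jak1* at 0.04. The 7 testable members that stayed inside the rule were *Rsad2* (-0.98), *Slfn4* (-0.95), *Dhx58* (-0.95), *Irf9* (-0.93), *Trim30a* (-0.71), *Oasl1* (-0.61) and *Slfn1* (-0.48). Among the GTPases induced by type II interferon, 4 of 5 testable genes fell, *Irgm1*, *Irgm2*, *Igtp* and *Gbp7*, with values from -1.92 to -1.64. In the list of antigen presentation on MHC class I, *Psmb10* (-1.53), *H2-T23* (-1.18) and *Psmb9* (-1.03) fell, 3 of 12, whereas *H2-D1* (0.10) and *B2m* (-0.26) stayed near the median gene.

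Per cell, the fall was spread over the population. The control neutrophils held a median of 11 UMIs of the interferon list per 1000 (2 to 41.9 from the 10th to the 90th percentile) and those labelled KO held 3 (0 to 13.3). At least 10 such UMIs were found in 56.9% of control neutrophils and 15.2% of those labelled KO, and none in 6 of 332 and 106 of 638 cells. For *Isg15* alone the shares of thinned cells with a UMI were 48.5% and 18.2%, while T and NK cells held 12.8% and 14.3%. For *Irf7* they were 33.7% and 8.46%, with 11.7% and 8.57% in T and NK cells. Over the 11 genes of the list testable in T and NK cells, in which Lyz2-Cre is not expected to act, the median was -0.63, from 94 and 35 cells. Within a library, cells with more *Hmox1* were not clearly those with less of the interferon list: Spearman's rho over cells was -0.11 in the control and -0.03 in the KO-labelled library, over cells that share a library and sparse counts.

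**Figure D3:**
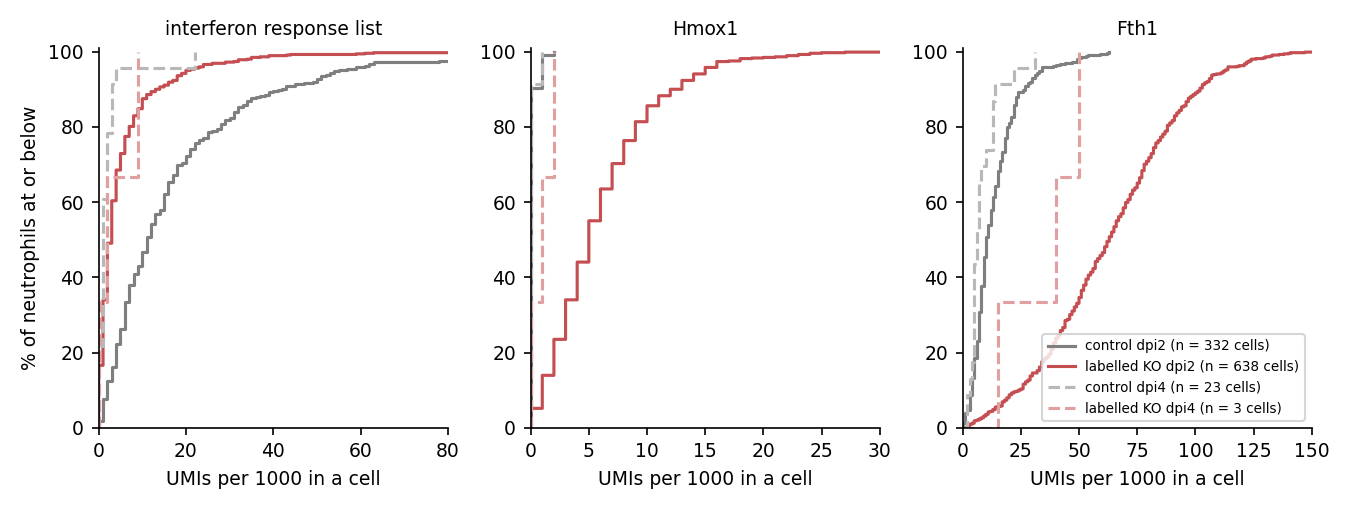
Cumulative percentage of neutrophils (vertical axis) by the UMIs per 1000 of a cell (horizontal axis) for the interferon list, *Hmox1* and *Fth1*, with 1 curve per library. The dpi2 curves of the interferon list pass 50% at 11 UMIs for the control and 3 UMIs for the KO-labelled library, and those of *Fth1* at 10 and 63.

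Monocyte markers moved beside these genes. *Plac8* was at 716 CPM in control neutrophils and 151 CPM in those labelled KO, *Ly6c2* at 661 and 99.9 CPM (log2 -2.41), *Ms4a4c* at 151 and 14.3 CPM (-3.09) and *Fn1* at 108 and 30.9 CPM. *Ccr2*, a defining receptor of monocytes, was at 93.5 and 20.6 CPM, *Vcan* at 39.6 and 29.3 CPM, *F13a1* at 44.0 and 28.9 CPM and *Csf1r* at 131 and 90.4 CPM. When every cell with a UMI of *Ccr2*, *Vcan*, *F13a1* or *Fn1* was left out, 280 control and 496 labelled KO neutrophils remained and the interferon list median was -1.55. The median was 1.22 for the heme and iron list and 1.16 for glycolysis among these cells.

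Several of the lowest genes were neighbours on their chromosomes. *Gm4955* (log2 -3.19), *Pyhin1* (-2.95), *AI607873* (-2.44) and *Ifi204* (-2.43), of the family of cytosolic DNA sensors on chromosome 1, all stood among the 12 genes at the bottom of a ranking by the bound of the interval nearest to no change, as did *Ifit1*, *Ifit2* (-2.74) and *Ifit3* on chromosome 19. *Ifi27l2a*, an interferon-induced mitochondrial protein, fell from 3024 to 415 CPM (-2.55), and *Ly6a* by 3.01 on the log2 scale. With *Lyz2*, *Ms4a4c* and *Ly6c2* these completed the 12.

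Ranked by the bound of the interval nearest to no change, *Cxcl3* (chr5:90786103-90789600), a chemokine that binds CXCR2 and draws further neutrophils, came after *Hmox1*. Its UMIs numbered 33, or 36.3 CPM, in the control and 2248, or 891 CPM, in the KO-labelled library (30.5-fold, log2 4.93, 4.44 to 5.47), and 0 UMIs in both dpi4 libraries. *Acta2*, smooth muscle actin, went from 23.1 to 534 CPM (4.84). In other cells of the same pair *Acta2* was far lower, at 4.80 and 31.9 CPM in monocytes and at 2.05 and 13.1 CPM in macrophages, so that it was highest in the neutrophils. *Creg1*, a secreted lysosomal glycoprotein, rose from 186 to 1273 CPM (8.50-fold relative to the median gene), *Cyb5a*, a cytochrome that passes electrons in the endoplasmic reticulum, from 44.0 to 484 CPM (3.77) and *Ikbkg*, the regulatory subunit of the IκB kinase, from 14 to 421 UMIs (3.75). *Mgst2*, a glutathione transferase that can make leukotriene C4, had 2 and 170 UMIs (5.25), and *Fmnl2*, a formin of the actin cytoskeleton, 1 and 80 (5.16, 2.64 to 10.5). *Ccl17* had 0 and 76 UMIs, at least 11.3-fold higher, and the predicted gene *Gm43661* 0 and 57, at least 8.50-fold.

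The other inflammatory genes of these cells moved less. Of 18 testable cytokine, chemokine and effector genes, 4 rose (2 without the scaling) and 0 fell, with a median of 0.52. *Cxcl2*, the most abundant chemokine transcript, rose from 25108 to 45237 CPM (log2 1.16), *Cxcl1* from 139 to 291 CPM (1.38) and *Irg1*, the itaconate synthase, from 958 to 1739 CPM (1.17). *Il1b* was at 15553 and 17614 CPM (0.49), *Tnf* at 2262 and 2167 CPM (0.25), *Ptgs2* at 4363 and 5084 CPM (0.53) and the antagonist gene *Il1rn* at 1066 and 1605 CPM (0.90), and none of these passed. In the NF-κB and inflammasome list 1 of 17 genes rose (*Nfkb2*, 1.15, from 18 to 89 UMIs) and the median was 0.10, with *Nlrp3* at 0.16. Without the scaling that list gave 0 higher and 1 lower. Immediate-early genes such as *Fos* (-0.15), *Junb* (0.57) and *Dusp1* (0.27) gave 0 of 13 past the rule and a median of 0.18.

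Surface receptors that sense microbes and damage were higher in part. *Clec4n*, which encodes Dectin-2, rose from 892 to 2553 CPM (log2 1.83), *Cd14*, the co-receptor for lipopolysaccharide, from 1197 to 2446 CPM (1.34) and *Clec4d* from 968 to 1873 CPM (1.26). *Tlr4* (1.52), *Tlr6* (1.01) and *Fpr1*, a receptor for formylated peptides (1.06), completed the 6 of 14 that rose (3 without the scaling), with 0 lower and a median of 0.69, and *Tlr2* was at 0.14. Receptors for adhesion and migration other than *Csf3r* and *Cxcr2*, which chose the cells, gave 2 of 18 higher, *Ltb4r1*, the leukotriene B4 receptor (1.70), and *Cd274*, which encodes PD-L1 (1.59), 0 lower and a median of 0.30. *Cxcr4*, which rises on ageing neutrophils, was at 1000 and 746 CPM (-0.11). *Fcgr1*, the high-affinity IgG receptor, fell from 99.0 to 15.1 CPM (-2.40). The inhibitory receptor gene *Lilrb4a* and the gene *Lilr4b*, which resembles it closely, both rose by 1.29.

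Granule and secretory genes were mixed. *Lcn2*, which binds bacterial siderophores, rose from 223 to 593 CPM (log2 1.72), *Mmp8*, the neutrophil collagenase, from 95.7 to 262 CPM (1.76), *Retnlg* from 211 to 523 CPM (1.62), *Slpi*, an inhibitor of elastase, from 848 to 1746 CPM (1.35) and *Wfdc21* from 185 to 454 CPM (1.61). *Ly6g*, with its few UMIs, also passed (2.04, 0.82 to 3.54), which made 6 of 14 higher and 0 lower, with a median of 0.53. *Mmp9*, the gelatinase, was at 1330 and 1419 CPM (0.41) and *Chil3* at 387 and 236 CPM (-0.40). *Ltf* had 22 UMIs in each library, too few for the rule. Inside the KO-labelled library, *Retnlg* was at 172 CPM in cells with 200 to 400 S100 UMIs per 10000 and at 1287 CPM in cells with at least 1000, and in the control at 173 and 303 CPM.

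Of 6 testable genes of stefins and cystatins, small inhibitors of cathepsins, 5 were higher and 1 lower, with a list median of 1.65. The summed level of the list was 4363 CPM in the control and 4528 CPM in the KO-labelled library. *Stfa1* went from 4 to 330 UMIs (log2 5.21, 3.84 to 7.09), *BC100530* from 2 to 97 (4.44), *Gm5483* from 194 to 1484 (1.77) and *Stfa2l1* from 295 to 1561 (1.24). These genes lie side by side on chromosome 16 and are near-identical copies, so which of them rose is uncertain. *Cstb*, which encodes cystatin B, lies elsewhere and rose from 829 to 1936 CPM (1.53). The cystatin gene *Cst3* went the other way, from 2989 to 1198 CPM (-1.01).

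Genes of survival and apoptosis gave 0 higher and 2 lower of 19, both copies of the *Bcl2a1* family, *Bcl2a1a* (log2 -1.24) and *Bcl2a1d* (-1.09), which share reads with each other and with *Bcl2a1b* (-0.70). *Mcl1*, the main survival factor of neutrophils, was at 3451 and 2991 CPM (0.11). Of 6 genes of the amino acid stress response that ATF4 controls, 3 rose, *Slc3a2* (1.45), the partner of *Slc7a11*, *Ddit4* (1.38) and *Sesn2* (1.21), while *Atf4* was at 0.23. The eicosanoid list gave 1 of 6 higher (*Pla2g7*, 1.10), with *Alox5ap* at 1619 and 1488 CPM (0.19), and 0 higher and 1 lower without the scaling. In the lysosome and lipid list 2 of 16 rose (*Hilpda* and *Lamp2*, 1.06) and 1 fell (*Gusb*, from 123 to 42.4 CPM, -1.23). Of 15 neutrophil transcription factors 1 rose (*Hif1a*), with *Cebpb* at 4835 and 5480 CPM (0.49). Of 77 ribosomal protein genes 0 rose and 1 fell, with a median of -0.23 and a summed level of 52794 and 38012 CPM. Primary granule genes gave a single testable member, *Ctsc*, the protease that activates granule enzymes, which fell from 166 to 53.9 CPM (-1.31).

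**Figure D4:**
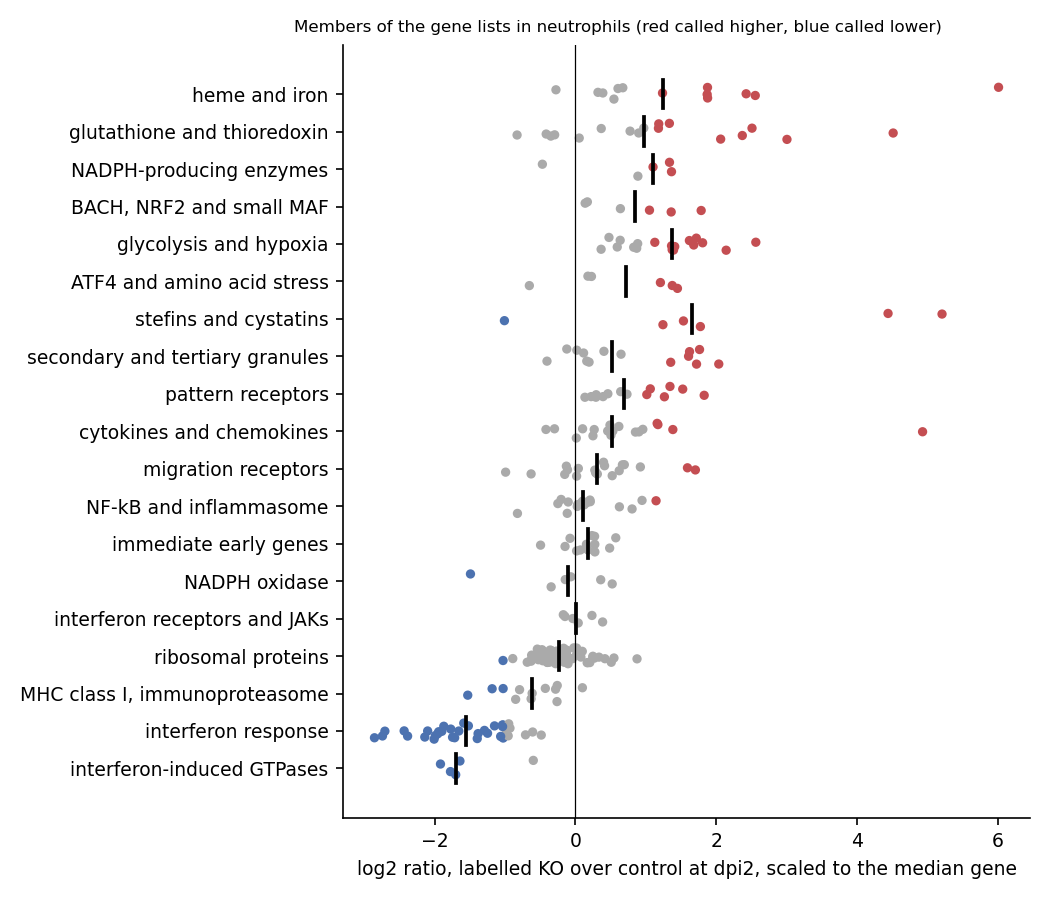
Log2 ratio of the KO-labelled library over the control in neutrophils at dpi2, relative to the median gene (horizontal axis), for the testable members of 19 gene lists (vertical axis); each dot is a gene, red where it passed the size rule as higher and blue as lower, and the black line is the list median. The dots of the interferon-response list lie at or below -0.48 and those of the glycolysis list at or above 0.37; *Csf3r* and *Cxcr2*, which chose the cells, are among the migration receptors.

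Lyz2-Cre also acts in monocytes and macrophages, and their ratios between the same pair of libraries stand beside those of the neutrophils. *Hmox1* was at 406 and 7449 CPM in monocytes (log2 4.19) and at 605 and 9754 CPM in macrophages (4.02), so the log2 ratio of neutrophils was higher by 1.82 (1.54 to 2.09) and by 1.99 (1.71 to 2.26). The level in control neutrophils was the lowest of these, and in the KO-labelled library the 3 cell types lay within 6161 and 9754 CPM. The ferritins differed in the same sense, *Fth1* by 1.466 and 1.503 and *Ftl1* by 1.52 and 1.79. Over the 12 genes of the heme and iron list testable in all 3 cell types the gap was smaller, with medians of 0.96 in neutrophils, 0.75 in monocytes and 0.49 in macrophages. *Gclm* had log2 ratios of 2.20 and 2.01 in monocytes and macrophages against 4.51 in neutrophils, whereas *Slc7a11* had 1.95 and 2.13 against 2.06. Ferroportin went the other way: *Slc40a1* was at 2.70 and 48.7 CPM in monocytes and 3.98 and 80.4 CPM in macrophages, log2 ratios of 4.17 and 4.35, below which that of neutrophils lay by 2.93 and 3.11, from a higher control level.

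The glycolysis list showed a wide gap between neutrophils and the other cells. Over the 17 genes testable in all 3 cell types its median was 1.37 in neutrophils, 0.32 in monocytes and 0.17 in macrophages, and the *Aldoa* ratio of neutrophils exceeded the others by 1.58 and 1.85 on the log2 scale. The 36 interferon-response genes had medians of -1.55, -1.32 and -1.22, so that their fall was shared by all 3 cell types, with *Isg15* at -1.29, -1.35 and -1.56. In the cytokine list the median was lower in neutrophils, with 0.52 in neutrophils, 0.98 in monocytes and 0.96 in macrophages over 18 genes. In T and NK cells of the same pair the cytokine median was 3.31 over 5 testable genes and that of the heme and iron list 1.53 over 3, and the part of RNA from other cells in these ratios was not tested. *Il1b*, for which neutrophils had the highest level, showed the smallest ratio there, 0.49 against 1.22 and 1.53, differences of -0.73 (-0.76 to -0.69) and -1.04 (-1.081 to -0.997).

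**Figure D5:**
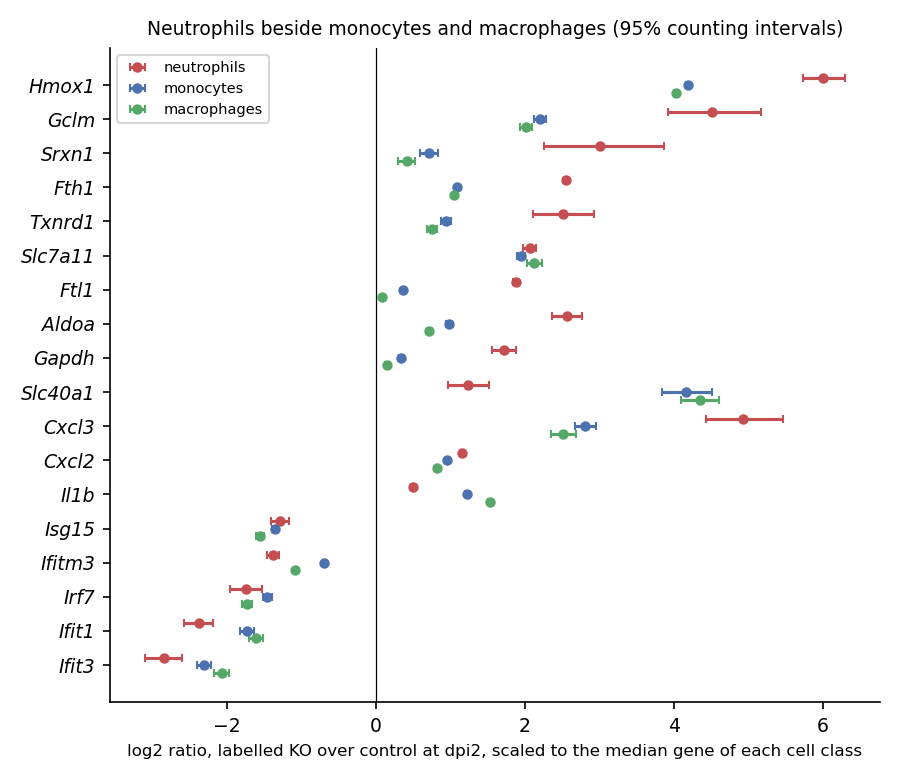
Log2 ratio of the KO-labelled library over the control at dpi2, relative to the median gene of each cell type (horizontal axis), for 18 genes (vertical axis) in neutrophils, monocytes and macrophages, with 95% counting intervals. *Hmox1* and *Gclm* lie furthest right in neutrophils, at 6.01 and 4.51, while *Slc40a1* lies furthest right in macrophages, at 4.35.

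Between dpi2 and dpi4, neutrophils of the control libraries differed in many genes, though only 23 cells represent dpi4. Of 2755 testable genes 141 were higher at dpi4 (5.12%) and 225 lower (8.17%), that is 38.5% higher, and 42.7% without the scaling, while TMM factors gave 54 higher and 471 lower. Of 34 testable interferon-response genes 30 were lower and 0 higher, with a summed level of 17037 CPM at dpi2 and 2356 CPM at dpi4. The list median was -3.03, or -2.52 with the 8 genes at 0 set to a floor of 3 counts over the group's cells. *Ifit3* went from 559 UMIs to 0, at least 15.2-fold lower, *Ifit1* from 709 UMIs to 2 (log2 -4.85) and *Ifi27l2a* fell by 3.90 on the log2 scale. The median cell held 11 UMIs of this list per 1000 at dpi2 and 1 at dpi4. Beside this list the 8 monocyte markers of the control neutrophils summed to 1943 CPM at dpi2 and 513 CPM at dpi4. *Plac8* was at 716 and 236 CPM, *Ly6c2* at 661 and 13.9 CPM, *Ms4a4c* at 151 and 13.9 CPM and *Fn1* at 108 and 27.7 CPM. *Ccr2* was at 93.5 and 27.7 CPM, *Vcan* at 39.6 and 13.9 CPM and *F13a1* at 44.0 and 0 CPM. *Csf1r* went the other way, from 131 to 180 CPM. The part of these monocyte markers in the difference of the interferon list was not tested.

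Other genes fell as well in the controls. *S100a6*, a calcium-binding protein, fell from 3559 to 236 CPM (log2 -3.96), and *Ly6c2* from 661 CPM to 1 UMI (-5.62). Of 11 testable granule genes 6 were lower, *Lcn2*, *Chil3*, *Mmp9*, *Slpi*, *Ifitm6* and *Wfdc21*, and 0 higher, with a median of -1.47. *Siglecf* and *Itgax*, which mark neutrophils that persist in tissue, rose: *Siglecf* from 150 to 527 CPM (1.78, 1.22 to 2.30), with a share of thinned cells of 13.3% and 43.5%, and *Itgax* by 1.82. *Siglecf* also marks eosinophils. Of their other genes *Prg2* and *Epx* had 0 UMIs here, and *Ccr3* had 2 UMIs at dpi2 and 0 at dpi4. *Epx* was at 0 in the comparison cells too, and the part of eosinophils was not tested. *Hilpda*, a hypoxia-induced inhibitor of lipolysis, rose by 3.01, *Rgs1*, which dampens chemokine signals, by 2.38, *Ltc4s*, the leukotriene C4 synthase, by 2.55 and the long noncoding *Gm26917* from 22 to 58 UMIs (5.01). *Apoe*, a defining transcript of macrophages, rose from 376 to 2218 CPM (2.52). The 7 macrophage markers other than the C1q genes, which chose the cells, summed to 770 CPM at dpi2 and 2550.4 CPM at dpi4. *Apoe*, one of them, held 376 and 2218 CPM of these sums. *Adgre1* (69.3 and 166 CPM) and *Trem2* (36.3 and 97.0 CPM) were higher at dpi4 as well. *Cd68* (197 and 27.7 CPM), *Ms4a7* (56.1 and 27.7 CPM), *Mrc1* (30.8 and 13.9 CPM) and *Mertk* (4.40 and 0 CPM) were lower. The part of macrophage RNA in the *Apoe* rise was not tested.

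Heme and iron genes of the controls gave 0 of 6 past the rule in either direction between the time points (median -0.85), *Hmox1* being at 119 CPM (97.4 to 143) and 55.4 CPM (15.1 to 142). Glycolysis genes gave 1 higher of 13 (*Gapdh*, log2 1.16) and a median of -0.14, and 75 ribosomal protein genes gave 0 past the rule. Of 17 cytokine genes 5 were lower and 0 higher.

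At dpi4 only 3 barcodes of the KO-labelled library met the rule, so their values are those of 3 cells. Of 248 testable genes 22 were higher (8.87%) and 18 lower (7.26%), 55% higher and 35.0% without the scaling, while TMM factors gave 1 higher and 96 lower. *Fth1* was at 8053 CPM in the control and 41080 CPM in the KO-labelled library (log2 2.57, 2.39 to 2.76), and its dpi2 ratio was 2.55. How near these ratios lie depends on the scaling. The median gene was at -0.31 at dpi2 and -0.22 at dpi4 on the log2 scale, so that dividing by it raises both ratios. TMM factors shift log2 CPM ratios by 0.42 at dpi2 and by -0.67 at dpi4. The 3 cells held 225, 168 and 30 *Fth1* UMIs of 4646, 3596 and 2055, and the 23 control cells from 4 to 85. *Hmox1* had 3, 1 and 2 UMIs in these cells, and in the control 1 UMI in each of 4 cells of 23, which gave 55.4 CPM (15.1 to 142) and 583 CPM (214 to 1268), with too few UMIs for the rule. *Ftl1* was higher by 1.09, *Cxcl2* by 1.12 and *Ptgs2* by 1.44. The mitochondrial transcripts *mt-Nd4* (1.88), *mt-Co2* (1.72) and *mt-Co3* (1.44) were higher too, and the median mitochondrial share of the cells was 1.79% in the control and 4.39% in the KO-labelled library. Their part in these ratios was not tested. With TMM factors only 1 gene of this pair was higher, so at most 1 of the genes named here as higher passed under that scaling.

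Among the lower genes at dpi4, *Tnf* had 97 UMIs in the control and 1 in the KO-labelled library (log2 -3.57), *Marcksl1*, an actin-binding protein, had a ratio of -2.44 and *Lyz2* one of -2.85. *G0s2*, a lipase inhibitor, went from 112 UMIs to 0, at least 4.57-fold lower. *Gm26917* (58 and 0 UMIs) and *Clec4d* (56 and 0) were at least 2.37- and 2.28-fold lower. *Tnf*, *G0s2*, *Gm26917* and *Clec4d* reached 50 UMIs through the control alone, whose neutrophils held 72146 UMIs against 10297. Nothing is drawn from these ratios. No interferon-response gene reached 50 UMIs in this pair, with summed levels of 2356 and 3496 CPM, so that whether the dpi2 difference persisted was not detectable at this depth.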

How the data were processed

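The authors deposited raw UMI counts per gene and barcode for 4 libraries, made with Cell Ranger 6.1.2 and the mm10 genome per the labels, with no normalization. The sources differ on the 10x kit version. From these counts, neutrophils were taken by the rule given above and their UMIs summed per library, giving 10297 to 2522217 UMIs. Intervals were exact: Poisson for CPM, conditional binomial for ratios, Clopper-Pearson for shares and, for the difference of shares, Newcombe's method. Ratios were divided by that of the median gene with at least 50 UMIs in the pair. For shares of cells, each cell was thinned to 1000 UMIs, which left out 5 control neutrophils at dpi2. No doublets were removed: 5 and 10 of the dpi2 neutrophils were among the highest Scrublet scores.

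The genes named were the members of 25 lists (446 genes, 441 matched; *Mx2*, *Clec7a*, *Itgam*, *Cebpd* and *Flvcr1* were not) and the genes past the size rule whose interval bound nearest to no change was furthest from it, 12 in each direction at dpi2 and 6 in each other comparison; a few of these genes are not reported here. The members of the lists, the rule for cells and the comparison cells (monocytes, macrophages, and T or NK cells, each from fixed markers) were chosen with earlier results of these data known. The counting steps were tested on simulated data. Alternatives changed the limits for cells, the scaling, the thinning, the fold and the UMI minimum. Software was scanpy 1.11.5, numpy 2.4.6, scipy 1.17.1, pandas 2.3.3 and edgeR 4.0.16 in R 4.3.3, used for TMM factors only.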

Additional observations from a re-analysis of the deposited data

Results flagged for a closer look

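The neutrophil share differed in opposite directions at the 2 time points, by 11.2 percentage points at dpi2 and by -0.447 points at dpi4, where 3 barcodes of the KO-labelled library and 23 of the control met the rule. The C1q limit alone kept out a further 12 and 37 barcodes there, and at a limit of 10 the dpi4 difference was -0.827. The difference between time points was not tested here or below, since each group was 1 library.

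The receptors for microbes and damage had a list median of 0.69 on the log2 scale at dpi2 over 14 testable genes and -1.48 at dpi4 over 5, so that the medians are not over the same genes. The 5 had 47 to 135 UMIs in the control and 0 to 21 in the KO-labelled library at dpi4, and thus reached 50 UMIs mainly through the control, for which reason nothing is drawn from their median. *Cd14* was at 1.34 and -2.34, and *Clec4n* at 1.83 and -1.48. *Clec4d* was at 1.26 at dpi2 and *G0s2* at 1.39, and both had 0 UMIs in the 3 neutrophils labelled KO at dpi4.

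Outside the neutrophils, the summed *S100a8*, *S100a9*, *Csf3r* and *Cxcr2* counts of T and NK cells stood at 1783 CPM (35 cells) in the KO-labelled library at dpi2, against 140 CPM (94 cells) in the control, 8.60 CPM in the control at dpi4 and 8.79 CPM in the KO-labelled library at dpi4. In that library neutrophils were 16.8% of the kept barcodes.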

How the results depend on the processing

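No paired analysis was possible because each group was 1 library, and for the same reason no replicate could be left out. At dpi2 none of 97 named genes past the size rule changed direction under any alternative, but 34 of them fell inside the rule under at least 1, among them 12 unscaled, 20 thinned and 11 at an S100 limit of 400. Their lowest values included *G6pdx* 0.33, *Tlr6* 0.60, *Fpr1* 0.65, *Maff* 0.74, *Prdx1* 0.80, *Bnip3* 0.82, *Cxcl2* 0.85, *Irg1* 0.86, *Slc40a1* 0.93 and *Clec4d* 0.95. Unscaled, 34 interferon-response genes were lower (29 scaled), 5 of MHC class I (3) and 4 of survival (2), and 0 Fc and inhibitory receptor genes were higher (2). Some genes that did not pass at dpi2 crossed 0, such as *Tnf* (-0.06 to 0.36), *Nfe2l2* (-0.17 to 0.25), *Mafk* (-0.14 to 0.35) and *Tlr2* (-0.18 to 0.30), and the medians of the interferon list (-1.86 to -1.44), the heme and iron list (0.93 to 2.22) and glycolysis (1.06 to 1.48) kept their sign. A C1q limit of 10, the wider S100 limit with 3 *Csf3r* or *Cxcr2* UMIs, and leaving out cells with monocyte genes were chosen after seeing the data. Where values moved as below, the cause was not tested. Depth limits the dpi4 pair most, with 10297 UMIs in 3 cells.

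The share difference was 12.6 points (dpi4 -0.827) at a C1q limit of 10, 8.63 with no C1q UMI, 12.7 and 8.55 at S100 limits of 100 and 400, 8.40 without cells with monocyte genes, and -0.737 at dpi4 under 5% mitochondrial UMIs. Genes past the rule at dpi2 (288 higher, 207 lower) were 583 and 496 at 1.5-fold, 103 and 62 at 3-fold, 132 and 76 at 200 UMIs, 166 and 88 thinned, 167 and 429 unscaled, with 361 lower at 20 UMIs. At dpi4 (22 and 18) they were 1 and 96 with TMM factors, 7 and 4 thinned, 5 and 5 at 200 UMIs, with 3 higher at 3-fold, 50 at 20 UMIs, 36 at a C1q limit of 10, and 14 unscaled, with no C1q UMI, under 5% mitochondrial UMIs and without cells with monocyte genes. Between time points (141 and 225) they were 54 and 471 with TMM factors, 71 and 78 thinned, 27 and 93 at 200 UMIs, with 239 higher at 1.5-fold, 32 at 3-fold and 258 at 20 UMIs, and 143 lower at an S100 limit of 400.

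Unscaled list medians at dpi2 were 0.93 (heme and iron), 0.66 (glutathione), 0.53 (BACH1 and related factors), -0.42 (NADPH oxidase), -1.86 (interferon response), -0.31 (interferon receptors), -0.93 (MHC class I), 0.21 (cytokines), -0.21 (NF-κB), 0.22 (granules), 1.34 (stefins), -0.15 (Fc and inhibitory receptors), -0.21 (survival) and -0.54 (ribosomal), and they reversed for migration (-0.0093), immediate-early genes (-0.13) and lysosome and lipid genes (-0.048). Thinned, they were 2.22 for heme and iron, 0.43 for cytokines and -0.022 for immediate-early genes, a reversal. At an S100 limit of 400 they were 1.74 (heme and iron), 0.78 (glutathione), 1.41 (stefins) and -0.057 (ribosomal), and at 100 they were 0.55 (BACH1 and related factors), 0.72 (cytokines) and 0.38 (granules). The cytokine median was 0.63 with TMM factors, 0.45 as a mean of cells, 0.47 without the highest Scrublet scores, 0.40 without cells with monocyte genes and 0.74 at the wider S100 limit, where BACH1 and related factors were at 0.35. Granules were at 0.39 with 2 *Csf3r* or *Cxcr2* UMIs, 0.37 with no C1q UMI and 0.35 without cells with monocyte genes, where stefins were at 1.38. At dpi4, cytokines (0.75) were at -0.15 with TMM factors, a reversal, and 0.0086 thinned, migration receptors (0.11, or -0.21 without *Csf3r* and *Cxcr2*, which chose the cells) reversed to -0.78, and immediate-early genes (-0.10) were at -0.99 with TMM factors and reversed to 0.44 at the wider S100 limit.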
